A study of Mus musculus with 8 samples.

Results

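The 10 transcription factors that mark the mesenchymal and stellate cell lineage were followed in EMS404 cells after silencing of Bnc2: Tcf21, Twist1, Wt1, Osr1, Gata4, Gata6, Lhx2, Prrx1, Nr2f2 and Tbx20. They were chosen by name, with earlier results of these data known. Each was measured by the probe sets that the array annotation pairs with that symbol alone. All 10 were found, each with 1 probe set, among 22180 genes on the array. EMS404 is a mouse line with which the study stands in for hepatic stellate cells in their myofibroblastic state (MF-HSCs). The siBNC2 cells received a small interfering RNA (siRNA) at 20 nM that targets Bnc2, the gene of the zinc finger factor Basonuclin 2, and the siCTRL cells received the same dose of a non-targeting siRNA. RNA was taken 48 h after lipofection, with 4 arrays per group numbered 1 to 4, and the groups shared line, medium and lipid. All values come from 1 cell line and 1 siRNA per group. The comparison asks whether these lineage factors depend on BNC2 in such cells.

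Hepatic stellate cells are the vitamin A-storing pericytes of the liver sinusoid and become collagen-secreting myofibroblasts (MFs) after injury. They derive in the mouse embryo from mesoderm of the septum transversum and its mesothelium, in which WT1 and GATA4 are active. LHX2 and GATA4 hold mouse stellate cells back from activation. TCF21 specifies fibroblasts in heart, kidney and other organs, TWIST1 and PRRX1 promote mesenchymal character, and OSR1 marks mesenchymal progenitors of the intermediate and lateral plate mesoderm.

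None of the 10 factors differed between siBNC2 and siCTRL beyond the spread of the replicates. With limma, 0 of 10 passed an adjusted p of 0.05 and 0 of 10 had an unadjusted p under 0.05, against 0% and 3.19% (708 genes) of all genes. The count of 708 was 1099 without siBNC2 replicate 4, the array with the highest Bnc2 value of its group. It was 824 without both arrays numbered 4, and 1207 with the replicate number as a block. In each of these fits 0 of 10 factors again had an unadjusted p under 0.05. The groups overlapped for all 10, and 2.16% of all genes, or 478, did not overlap. At such small shares, 0 of 10 does not set the factors apart from other genes. Of the 10, 7 had the lower mean in siBNC2 and 3 the higher one, and 4 of the 10 had the lower mean once siBNC2 replicate 2 was left out. The differences ran between −0.29 for Tbx20 and 0.17 for Twist1 on the log2 scale, with a median of −0.12, against a median of 0.0074 over all genes. On this log2 scale a difference of 1 is a doubling. The second siBNC2 array held the lowest value of 7 of the 10 factors.

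Bnc2 itself was read first as a check of the labels. It averaged 7.19 ± 0.68 in siBNC2 and 8.52 ± 0.35 in siCTRL (SD, n = 4 each), a difference of −1.33 ± 0.31 (SE), or 2.51-fold lower. Replicates 1 to 4 read 7.07, 6.78, 6.72 and 8.18 in siBNC2 and 8.26, 8.41, 8.37 and 9.03 in siCTRL. The array numbered 4 was thus the highest of each group, and that of siBNC2 lay just under the lowest siCTRL array. The groups did not overlap, and exact permutation (two-sided) gave p = 0.0286, which no split of 8 arrays into 4 and 4 can better. The limma adjusted p was 1.00. The arrays had medians of 6.45 to 6.50, and the correlation across genes was 0.983 to 0.996 for any pair of them. Precision is limited by the number of arrays. The study's methods call the replicates independent, and no label names a separate culture for each.

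The cell type was checked through marker lists. Percentiles are of the mean value among all genes, and percentile 40 is a mean log2 value of 5.66. Of 17 stellate and myofibroblast markers, 12 lay above percentile 40, between 40.6 for the matrix protein gene Postn and 99.9 for the collagen chain Col1a1. The smooth muscle actin Acta2 lay at 99.0 and the growth factor receptor Pdgfra at 96.9, but the intermediate filament gene Des at 44.0. The 5 below percentile 40 were Lrat, which encodes the retinol esterifying enzyme, Reln, Hhip, Rgs5 and Ngfr, all known from quiescent stellate cells or pericytes. Of 9 mesothelial markers, Upk3b, Upk1b and Gpm6a lay at 98.9, 99.3 and 99.4, Krt8, Msln and Krt18 at 59.1, 58.0 and 43.0, and Cdh1, Krt19 and Muc16 at 38.8, 21.2 and 5.11. Of 4 portal fibroblast markers, Cd34 and Fbln2 lay at 99.2 and 99.0, and Eln and Thy1 at 29.9 and 25.1. Of the other cell types, 6 of 13 hepatocyte, 5 of 7 cholangiocyte, 7 of 11 endothelial and 9 of 10 blood and macrophage genes lay below percentile 40. Albumin (Alb) lay at 18.5, Cdh5 at 4.17 and Ptprc at 16.3, while the brightest gene of each of these lists was Foxa2 at 77.8, Sox9 at 57.6, Fli1 at 66.0 and Cd68 at 68.3. The lists thus did not divide cleanly into bright and dim ones.

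The 10 factors themselves lay between percentile 52.5 for Tcf21 and 97.2 for Gata6 of all genes by mean value, and none was below percentile 40. Wt1 lay at 90.3, Prrx1 at 79.9, Twist1 at 77.8, Osr1 at 77.4, Nr2f2 at 72.5, Tbx20 at 72.0, Gata4 at 68.3 and Lhx2 at 61.6. Probe sets differ in affinity, so these percentiles say how bright each probe set was and do not order the genes by transcript abundance.

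**Figure D1:**
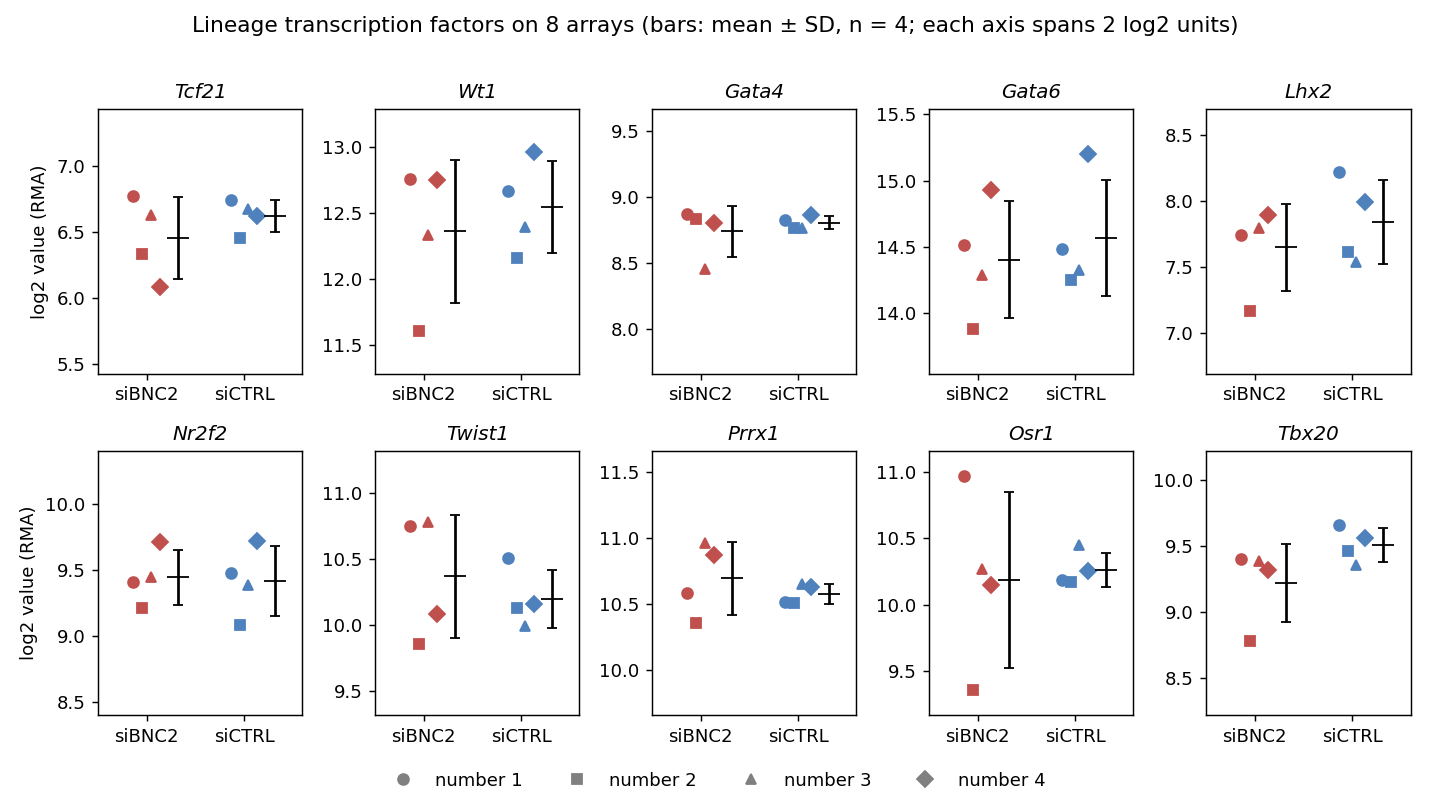
Log2 value (RMA) of each of the 10 lineage factors on every array, siBNC2 in red and siCTRL in blue, with the replicate number as the symbol and the group mean ± SD (n = 4) beside the points. The groups overlap in every panel, and the square of siBNC2 replicate 2 is the lowest point for Wt1, Gata6, Lhx2, Twist1, Prrx1, Osr1 and Tbx20.

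Promoters of Tbx20 and Lhx2 are shown because these 2 factors followed each other most closely over the 8 arrays (Pearson r = 0.88) among pairs with both promoters at hand. The sequences are RefSeq's for GRCm38.p6, 5′ to 3′ on the strand of the gene, each 300 bases long and ending shortly after an annotated start. Capitals mark a match to the E-box CANNTG, the core bound by bHLH factors such as TCF21 and TWIST1.
Tbx20, chr9:24774254-24774553, minus strand: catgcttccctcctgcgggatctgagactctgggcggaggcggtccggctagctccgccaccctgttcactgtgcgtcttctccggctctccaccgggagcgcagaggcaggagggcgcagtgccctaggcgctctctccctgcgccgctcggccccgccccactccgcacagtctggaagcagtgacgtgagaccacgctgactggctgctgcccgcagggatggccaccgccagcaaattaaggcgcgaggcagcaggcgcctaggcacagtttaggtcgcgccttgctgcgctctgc
Lhx2, upstream start, chr2:38339031-38339330, plus strand: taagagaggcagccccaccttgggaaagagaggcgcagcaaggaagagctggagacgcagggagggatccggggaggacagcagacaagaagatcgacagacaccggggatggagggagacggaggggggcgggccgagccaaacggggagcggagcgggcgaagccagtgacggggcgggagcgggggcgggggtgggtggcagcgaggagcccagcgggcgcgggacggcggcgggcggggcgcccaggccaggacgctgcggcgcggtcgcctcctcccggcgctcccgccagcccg
Lhx2, downstream start, chr2:38351058-38351357, plus strand: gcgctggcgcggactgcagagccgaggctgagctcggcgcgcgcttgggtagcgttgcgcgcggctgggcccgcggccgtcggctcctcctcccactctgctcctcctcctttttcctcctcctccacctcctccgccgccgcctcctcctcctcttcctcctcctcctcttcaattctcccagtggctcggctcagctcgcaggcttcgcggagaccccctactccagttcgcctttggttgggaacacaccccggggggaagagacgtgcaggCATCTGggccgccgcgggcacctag
The E-box was the 1 match among 6 motifs searched on both strands in these 3 windows, and it stands in the downstream window of Lhx2. The zinc finger motif of WT1 and its EGR relatives was searched as GCGTGGGCG and that of T-box factors as AGGTGTGA, with no match in any window read. The site to which a single nuclear receptor subunit binds was searched as AGGTCA, also with none. Homeodomain proteins were searched through TAATTA, and the family of Gata4 and Gata6 through AGATAA. Windows were also read for Tcf21, Twist1, Prrx1 and Nr2f2, so that 6 of the 10 factors had at least 1. Among the 7 windows, 2 held an E-box (Lhx2 and Nr2f2), against 72.3% of 32851 promoters in the table. The motif of the Gata4 family was found in the window of Tcf21 and in 11.2% of all promoters, and the homeodomain motif in that of Prrx1 and in 5.29%. The windows had a median GC content of 66.0%, against 52.7% over all promoters. A match in such a window is a description of the letters and not of binding.

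Tcf21 and Twist1 encode bHLH factors, which bind the E-box as dimers with widely expressed E proteins. Tcf21 read 6.77, 6.33, 6.62 and 6.08 in siBNC2 replicates 1 to 4, against 6.74, 6.46, 6.67 and 6.62 in siCTRL replicates 1 to 4. The low siBNC2 arrays were replicates 4 and 2, and replicate 1 was the highest of all 8. The difference was −0.17 (95% interval −0.53 to 0.19, exact two-sided permutation p = 0.371), and it was −0.046 without siBNC2 replicate 4. Twist1 read 10.75, 9.86, 10.78 and 10.09 in siBNC2 and 10.51, 10.13, 9.99 and 10.16 in siCTRL. In siBNC2, replicates 1 and 3 lay above the range of siCTRL, replicate 4 within it and replicate 2 below it. The difference was 0.17 (−0.33 to 0.67, exact permutation p = 0.543), with values of 0.034 without siBNC2 replicate 3 and 0.34 without replicate 2.

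Wt1 and Osr1 encode zinc finger factors. WT1 is required for kidney and gonad formation and is active in mesothelium, the sheet of cells that covers the liver and contributes stellate cells in the embryo. Wt1 read 12.76, 11.61, 12.33 and 12.75 in siBNC2, against 12.67, 12.16, 12.39 and 12.96 in siCTRL. Both arrays numbered 2 were the lowest of their group. The difference was −0.18 (−0.78 to 0.42, exact permutation p = 0.629), and it was 0.070 without siBNC2 replicate 2, so that 1 array set its sign. OSR1 acts in early kidney, heart and limb mesenchyme. Osr1 read 10.97, 9.35, 10.27 and 10.15 in siBNC2, against 10.18, 10.17, 10.45 and 10.25 in siCTRL. The 4 siBNC2 arrays spanned 1.62 log2 units, the widest range of the 10 factors in either group, and held both the highest and the lowest of the 8 values, whereas siCTRL spanned 0.28. The mean difference was −0.08 (−0.71 to 0.55, exact permutation p = 0.714). It was 0.20 without siBNC2 replicate 2 and −0.34 without siBNC2 replicate 1.

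Gata4 and Gata6 encode zinc finger factors that bind GATA motifs and overlap in function in heart, gut and liver mesenchyme. Gata4 read 8.87, 8.83, 8.46 and 8.81 in siBNC2 and 8.83, 8.77, 8.77 and 8.86 in siCTRL. All arrays but siBNC2 replicate 3 lay between 8.77 and 8.87, and that one stood below them. The difference was −0.06 (−0.34 to 0.21, exact permutation p = 0.857), the narrowest interval of the 10, and it was 0.031 without that array. Gata6 read 14.51, 13.88, 14.29 and 14.93 in siBNC2, against 14.48, 14.25, 14.32 and 15.20 in siCTRL. Both groups had the same order of arrays, with replicate 4 highest and replicate 2 lowest. The difference was −0.16 (−0.75 to 0.42, exact permutation p = 0.629), and it turned to 0.013 without siBNC2 replicate 2 and to 0.051 without siCTRL replicate 4.

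Lhx2 and Prrx1 encode homeodomain factors. LHX2 carries a pair of LIM domains that bind the cofactor LDB1, and mice without Lhx2 develop liver fibrosis before birth. Lhx2 read 7.74, 7.17, 7.79 and 7.89 in siBNC2, against 8.22, 7.62, 7.54 and 7.99 in siCTRL. Only siBNC2 replicate 2 lay below the siCTRL range. The difference was −0.19 (−0.65 to 0.26, exact permutation p = 0.486), and it was −0.033 without that array. PRRX1 acts in limb and craniofacial mesenchyme and marks fibroblasts in several organs. Prrx1 read 10.58, 10.36, 10.96 and 10.87 in siBNC2, against 10.52, 10.51, 10.65 and 10.63 in siCTRL. In siBNC2, replicates 3 and 4 lay above every siCTRL array and replicate 2 below them. The difference was 0.12 (−0.21 to 0.44, exact permutation p = 0.40), with values of 0.23 without siBNC2 replicate 2 and 0.027 without replicate 3.

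Nr2f2 encodes COUP-TFII, an orphan nuclear receptor of venous endothelium and of mesenchyme in many organs. Nr2f2 read 9.41, 9.21, 9.45 and 9.71 in siBNC2 and 9.48, 9.08, 9.39 and 9.72 in siCTRL. The groups ran side by side, with replicate 4 highest and replicate 2 lowest in each. The difference was 0.03 (−0.34 to 0.39, exact permutation p = 0.857), the smallest in size of the 10. It was −0.061 without siBNC2 replicate 4 and −0.084 without siCTRL replicate 2.

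Tbx20 encodes a T-box factor known from heart development in mouse and fish. Tbx20 read 9.40, 8.78, 9.38 and 9.32 in siBNC2, against 9.66, 9.46, 9.36 and 9.56 in siCTRL. In siBNC2, replicates 1, 3 and 4 lay near the lowest siCTRL array, and replicate 2 stood well below it. The difference of −0.29 ± 0.16 (SE, 95% interval −0.64 to 0.07) was the largest in size of the 10, and the exact permutation p of 0.0857 was the smallest of the 10 such tests, which were not adjusted. The limma adjusted p was 1.00. Tbx20 was lower in siBNC2 in 3 of the 4 comparisons of arrays with the same number, and the difference was −0.14 without siBNC2 replicate 2.

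**Figure D2:**
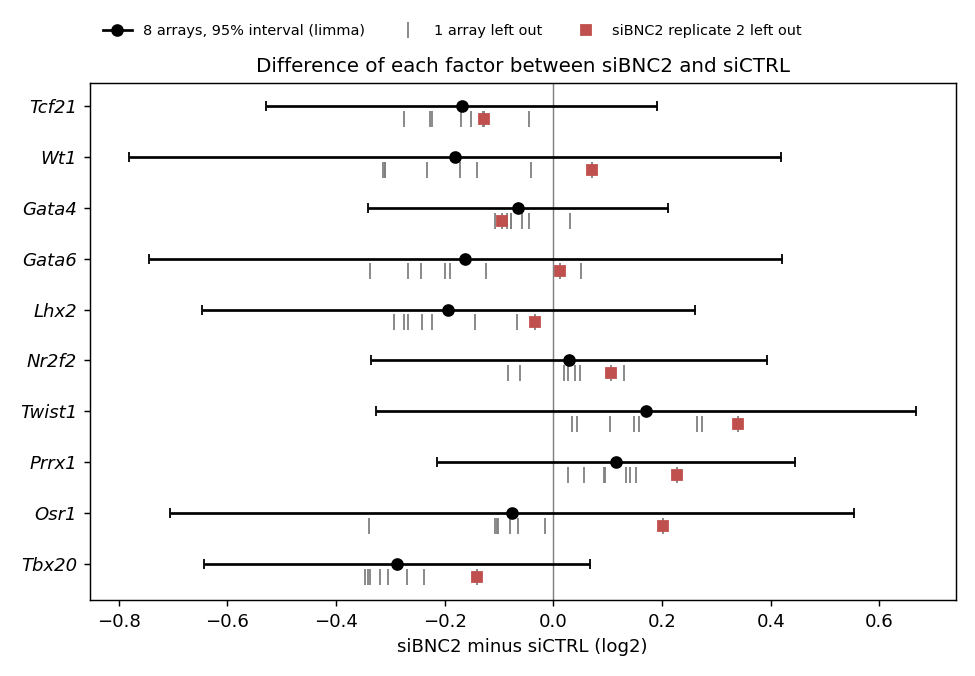
Difference of each factor, siBNC2 minus siCTRL in log2 units, with its 95% interval from limma over 8 arrays (black). Grey ticks give the difference with 1 array left out and the red square that without siBNC2 replicate 2. Every interval includes 0, and the red square lies right of 0 for Wt1, Gata6 and Osr1, whose full differences are below 0.

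The intervals bound the size of a difference rather than showing its absence, and they come from the fit without a replicate block. With the block the unadjusted limma p of every factor was lower, 0.23 against 0.52 for Wt1. The smallest was 0.076 for Tbx20. The lowest bound was that of Wt1, 1.72-fold lower in siBNC2, and the highest that of Twist1, 1.59-fold higher. For Gata4 the bounds were 1.27-fold lower and 1.16-fold higher, and for Nr2f2 they were 1.26-fold lower and 1.31-fold higher. Bnc2, at 2.51-fold lower, lay outside the bounds of all 10 factors. Its own bounds, 4.09-fold and 1.55-fold lower, overlapped those of some factors, Wt1 among them.

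The factors had wider ranges among the siBNC2 arrays than among the siCTRL arrays, for some of them through 1 array. Of the 10, 9 had the wider range in siBNC2, Nr2f2 being the exception, whereas 50.7% of all genes had. The ranges in siBNC2 and siCTRL were 1.62 and 0.28 for Osr1, 0.60 and 0.14 for Prrx1, 0.42 and 0.098 for Gata4, and 0.69 and 0.28 for Tcf21. Those of Gata6, 1.05 and 0.95, and of Lhx2, 0.73 and 0.68, were nearly alike. Without siBNC2 replicate 2, the siBNC2 values of Wt1, Gata6, Lhx2 and Tbx20 spanned less than those of siCTRL. Lhx2, for example, ran between 7.74 and 7.89 in siBNC2 then, against 7.54 to 8.22 in siCTRL. Factors that share such an array are not separate observations, so the count of 9 is a description.

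Replicate 2 of siBNC2 stood apart for these factors. It held the lowest of the 8 values of Wt1, Gata6, Lhx2, Twist1, Prrx1, Osr1 and Tbx20, 7 of 10, against 11.5% of all genes and 13.7% of genes above percentile 40. On it 9 of the 10, all but Gata4, lay below their own mean, with a median deviation of −0.50, while the median deviation of all genes there was 0.0023. The other array numbered 2, in siCTRL, also had 9 of the 10 below their own mean, with a smaller median deviation of −0.13. The highest values of Wt1, Gata6 and Nr2f2 were on siCTRL replicate 4. No factor was lower, and none was higher, in all 4 comparisons of arrays with the same number.

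**Figure D3:**
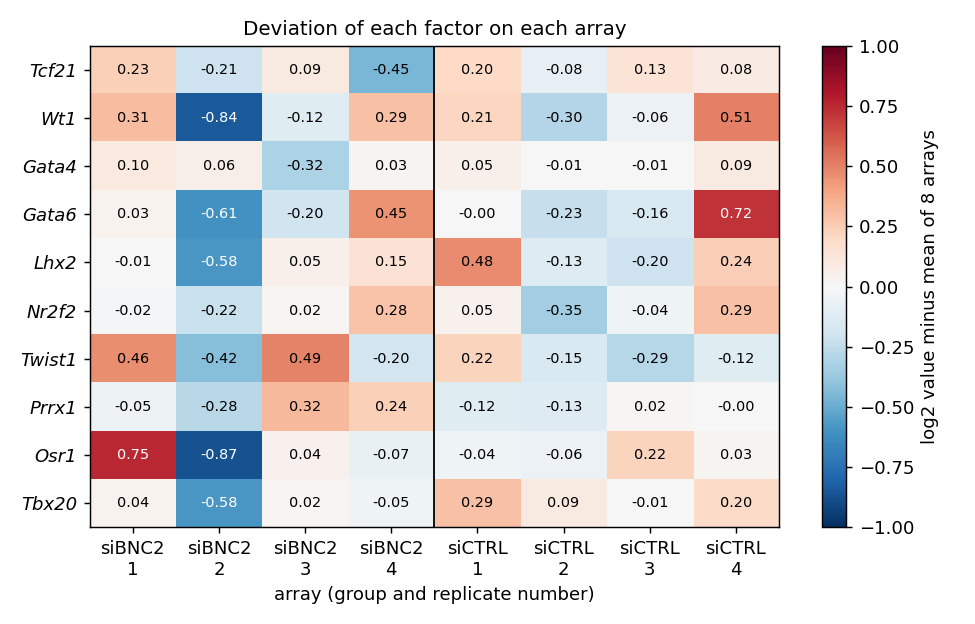
Deviation of each factor on each array from its mean over the 8 arrays, in log2 units (blue below, red above), with the siBNC2 arrays left of the line and the siCTRL arrays right of it. The column of siBNC2 replicate 2 is blue for all factors but Gata4, with the lowest deviations for Osr1 and Wt1.

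Other genes also had their lowest value on siBNC2 replicate 2. Among 14 myofibroblast factors named by the study and above percentile 40, 7 did so, namely Nfe2l1, Hoxb2, Hoxb4, Trps1, Snai2, Hand2 and Creb3l1. So did 5 of 17 family relatives, 3 of 15 partners, 3 of 9 reported targets, 2 of 12 stellate and myofibroblast markers, 2 of 6 mesothelial markers, 1 of 7 hepatocyte genes and 1 of 5 heart and skeletal muscle genes above that percentile. Of the portal fibroblast, cholangiocyte, endothelial and blood genes above it, 0 of 9 did. The lists share genes, so these counts are not separate observations. Hand2 was counted again among the relatives and among the stellate and myofibroblast markers, and Snai2 again among the reported targets. Upk3b read 15.94, 14.28, 15.49 and 15.88 in siBNC2 and 16.14, 15.20, 16.15 and 16.53 in siCTRL. Gpm6a read 16.35, 15.56, 15.67 and 16.94 in siBNC2 and 16.28, 16.01, 16.65 and 17.07 in siCTRL. The other mesothelial markers above percentile 40 had their lowest value elsewhere. It lay on siBNC2 replicate 4 for Upk1b, on siBNC2 replicate 3 for Krt18, and on siCTRL replicate 4 for Msln and Krt8. The summed level of the 9 mesothelial markers, as log2 of the sum of linear values, ran between 16.9 and 18.0 in siBNC2 and between 17.4 and 18.1 in siCTRL. Such a sum is set mostly by the brightest markers. No marker of that list is at 0 on this scale. Acta2 ran the other way on the same array, with 16.23, 17.10, 16.08 and 14.80 in siBNC2 and 15.54, 16.67, 15.90 and 14.08 in siCTRL. Its highest value lay on siBNC2 replicate 2 and its lowest on siCTRL replicate 4, where Wt1, Gata6 and Nr2f2 were highest. Acta2 does not stand for its list. Tagln was also highest on siBNC2 replicate 2, at 13.08, but Col1a2 and Hand2 were lowest there. The median deviation of the 12 stellate and myofibroblast markers above percentile 40 on that array was −0.28. The part of these genes in the values of the lineage factors was not tested, and fewer cells of a kind and less RNA per cell cannot be told apart in bulk RNA.

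Factors were also set beside the genes whose values followed them most closely over the 8 arrays, out of 13298 other genes above percentile 40. These likenesses are descriptions, and the 8 points share 2 treatments and the same arrays. The highest r among that many genes over 8 arrays is large by selection alone, and its chance level was not computed. Gata6 was most like Gata6os (r = 0.98), the transcript from the opposite strand at the Gata6 locus. Gata6os read 9.44, 8.70, 9.29 and 10.27 in siBNC2 and 9.71, 9.11, 9.30 and 10.48 in siCTRL, the same order of arrays within each group. Wt1 was most like Tgfb3 (r = 0.98), a TGF-β ligand, which read 12.37, 11.36, 12.11 and 12.52 in siBNC2 and 12.35, 11.90, 12.24 and 12.77 in siCTRL. Tbx20 was most like Wnt5a (r = 0.97), a ligand of non-canonical Wnt signalling, at 7.03, 6.64, 7.08 and 7.03 in siBNC2 and 7.39, 7.14, 7.02 and 7.29 in siCTRL. Both ligands were lowest on siBNC2 replicate 2, which follows largely from choosing them for their likeness to Wt1 and Tbx20.

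The nearest genes of the others were Tefm for Tcf21 (r = 0.97), Vmn1r175 for Gata4 (0.96), the presenilin Psen2 for Lhx2 (0.96), the phosphatase subunit Ppp6r2 for Nr2f2 (0.98), Sytl4 for Twist1 (0.96), the coronin Coro7 for Prrx1 (0.96) and the SOX factor Sox5 for Osr1 (0.95). Within the 10, the closest were Wt1 and Gata6 (r = 0.89), Lhx2 and Tbx20 (0.88) and Gata6 and Nr2f2 (0.86). Gata4 was least like the others, with r = 0.29 to its nearest, Gata6.

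Relatives, partners and known targets of the factors were read from lists in the same fit. Of 39 relatives in the same families, 14 had the lower and 25 the higher mean in siBNC2. Their median difference was 0.03, 1 had an unadjusted p under 0.05 and 0 passed the adjusted p of limma. Tcf15, a bHLH factor of the paraxial mesoderm, had the smallest unadjusted p of them, with 3.93, 3.77, 3.69 and 3.88 in siBNC2 and 4.15, 4.35, 4.42 and 4.23 in siCTRL. These groups did not overlap (difference −0.47 ± 0.12 SE, limma adjusted p = 1.00), but Tcf15 lay at percentile 2.42, among the dimmest genes of the array. Tbx18, a T-box factor of the epicardium at percentile 67.8, differed by −0.24 ± 0.12 (SE). Its groups did not overlap either, with 8.68 as the highest siBNC2 and 8.69 as the lowest siCTRL value. These were the 2 of 39 relatives without overlap, against 2.16% of all genes. Of the 39, 22 lay below percentile 40, among them Twist2, Osr2, Gata5, Tbx5 and Lhx9, whereas the lineage factors of the same families did not. Factors and relatives were chosen with earlier results of these data known, so this contrast may come from the choice and is a description.

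Of 18 partners, 9 had the lower and 9 the higher mean, with a median of −0.0023, 2 at an unadjusted p under 0.05 and 0 past the adjusted p of limma. Id3 and Id1, inhibitors that take E proteins away from bHLH factors, had the smallest p. The other Id genes of the list had the higher mean in siBNC2, Id2 by 0.40 ± 0.18 and Id4 by 0.16 ± 0.12 (SE). Id3 read 12.39, 12.46, 12.31 and 12.22 in siBNC2, all below the 12.47, 12.68, 12.52 and 13.17 of siCTRL, and differed by −0.37 ± 0.16 (SE, limma adjusted p = 1.00). Id1 read 11.71, 12.04, 12.22 and 11.80 in siBNC2 and 11.97, 12.53, 12.36 and 12.36 in siCTRL, and differed by −0.36 ± 0.16 (SE). The E protein genes themselves differed by 0.27 for Tcf3, −0.20 for Tcf4 and −0.01 for Tcf12, and the LIM cofactor Ldb1 by 0.10.

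Of 16 genes known from other work as targets of these factors, 9 had the lower and 7 the higher mean, with a median of −0.05 and 0 past either p. The 2 with the smallest p were Nphs1, the nephrin gene of kidney podocytes, and Amhr2, the receptor of anti-Müllerian hormone, both known from WT1 in kidney and gonad. They differed by 0.18 ± 0.11 and 0.20 ± 0.15 (SE) and were dim, at percentiles 16.0 and 9.77. Of 19 measured myofibroblast factors of the study, 10 had the lower and 9 the higher mean, with a median of −0.04 and 0 past either p. The T-box gene Tbx2 differed by 0.21 ± 0.12 and Creb3l1, which encodes an ER-tethered activator of collagen genes, by −0.54 ± 0.36 (SE). The study chose that list on human primary MFs and not on these arrays. Its set also holds Bnc2 and, of the lineage factors, Nr2f2, Twist1, Prrx1 and Osr1, which are not counted among the 19.

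**Figure D4:**
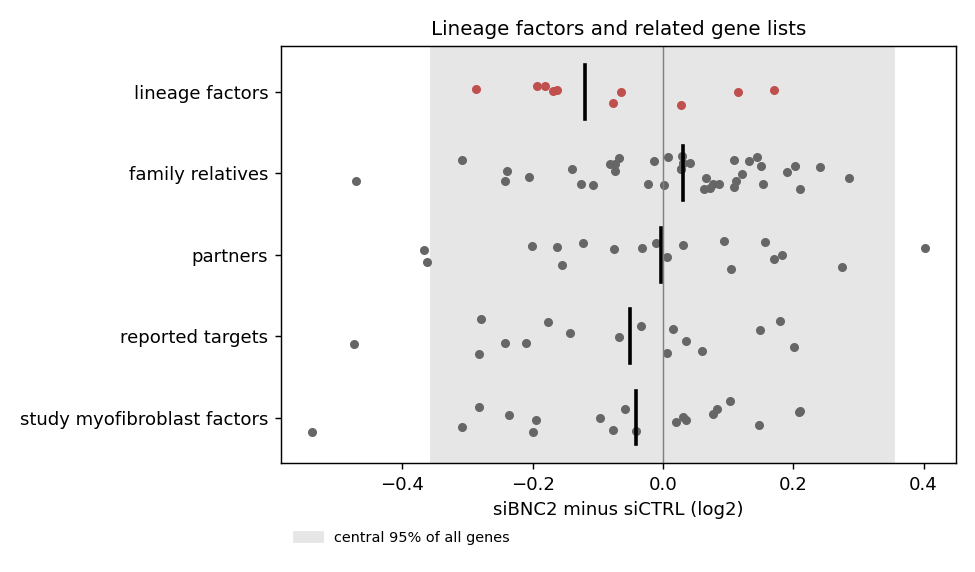
Difference of each gene, siBNC2 minus siCTRL in log2 units, for the 10 lineage factors (red) and 4 related lists (grey), with the median as a black bar and the central 95% of all genes shaded. The shaded range runs between −0.36 and 0.35, and all 10 lineage factors lie inside it.

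Among the marker lists, the matrix gene Col3a1 had the smallest p of the stellate and myofibroblast markers, with 10.23, 10.53, 11.31 and 12.17 in siBNC2 and 11.90, 11.95, 12.82 and 12.84 in siCTRL. It differed by −1.32 ± 0.41 (SE, limma adjusted p = 1.00). Its difference lay outside the interval of each lineage factor. The intermediate filament gene Des was next, at 0.37 ± 0.18 (SE). The 2 lowest p among mesothelial markers were those of Upk3b, −0.61 ± 0.39, and Gpm6a, −0.37 ± 0.32 (SE), and 6 of the 9 had the lower mean in siBNC2.

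Markers of other cell types passed the adjusted p of limma in 0 cases as well. Of 13 hepatocyte genes, 6 had the lower and 7 the higher mean in siBNC2, with the cytochrome Cyp3a11 at 0.43 ± 0.19 and the thyroid hormone carrier Ttr at 0.34 ± 0.17 (SE). Of 7 cholangiocyte genes, 3 had the lower and 4 the higher mean, with Sox9 at 0.53 ± 0.23 and Epcam at 0.22 ± 0.17 (SE). Cyp3a11 and Sox9 were the 2 genes of these lists with an unadjusted p under 0.05. The split was 4 lower and 7 higher for 11 endothelial genes (Sox7 at 0.13 ± 0.12, Tek at −0.18 ± 0.20) and 6 lower and 4 higher for 10 blood and macrophage genes (Csf1r at 0.15 ± 0.13, Adgre1 at −0.11 ± 0.13). Portal fibroblast markers had 1 lower and 3 higher (Eln at 0.26 ± 0.16, Thy1 at 0.05 ± 0.16), and heart and skeletal muscle genes 5 lower and 4 higher (Myog at 0.23 ± 0.13, Nkx2-5 at −0.16 ± 0.12).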

How the data were processed

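Biotin-labelled EMS404 RNA was run on Affymetrix MoGene 2.0 ST arrays, 1 colour and 1 sample per array. The authors deposited log2 values per probe set, made with Affymetrix Power Tools through GIANT by GC correction, intensity scaling and RMA at the core gene level. The log base is that of RMA and is not written beside the values. RMA gives the arrays nearly one distribution, which would remove a shift of most genes. Of 41345 probe sets, 23521 had 1 symbol, 1820 several and 16004 none, and the first were averaged per symbol to 22180 genes. Entrez identifiers matched RefSeq (GRCm38.p6) for 23328 probe sets, and 0 symbols were updated. No 2 arrays were identical.

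The groups entered a linear model of limma 3.58.1 (R 4.3.3) with group as its term, moderated by eBayes. Two-sided p-values were adjusted over the 22180 genes by Benjamini-Hochberg and read at 0.05. Single factors were tested by exact two-sided permutation over 70 arrangements, for the 10 factors and Bnc2. Alternatives were another quantile normalization, median centring, a filter at percentile 40, the brightest probe set, all probe sets, a trended robust prior, array weights, the replicate block, each array left out, and both arrays numbered 4 left out. The text names the 10 factors, Bnc2, the 2 genes with the smallest p of each related list, the gene most like each factor (r over 8 arrays), and defining markers where a level is stated. Other genes named were chosen after their values were seen. The factors and lists were chosen with earlier results of these data known. Marker lists for portal fibroblasts, cholangiocytes and muscle were also read.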

Additional observations from a re-analysis of the deposited data

Results flagged for a closer look

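The siBNC2 replicate 3 value of Gata4 was 8.4564, against 8.81 to 8.87 on the other 3 siBNC2 arrays, and stood apart by Dixon's criterion for 4 values. The siBNC2 replicate 2 value of Tbx20 was 8.7811, against 9.32 to 9.40, and stood apart likewise. These were 2 of the 22 groups checked, Bnc2 included, and chance alone marks about 1 group in 20. Without these arrays the difference of Gata4 was 0.031 and that of Tbx20 −0.14.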

How the results depend on the processing

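Under the 17 alternatives, 0 of 10 factors and 0 genes passed the adjusted p, and 0 of 10 factors had an unadjusted p under 0.05. Outside the fits that left out 1 array, no factor changed sign. With 1 array left out, the difference of Wt1 ran between −0.31 and 0.070, that of Gata4 between −0.11 and 0.031, that of Gata6 between −0.34 and 0.051, that of Nr2f2 between −0.084 and 0.13 and that of Osr1 between −0.34 and 0.20, and those of the other 5 factors kept their sign. The sign turned without siBNC2 replicate 2 for Wt1, Osr1 and Gata6 (0.013), without siBNC2 replicate 3 for Gata4, without siCTRL replicate 4 for Gata6, and without siBNC2 replicate 4 (−0.061) or siCTRL replicate 2 for Nr2f2. With 1 array left out, between 4 (without siBNC2 replicate 2) and 8 of the 10 factors had the lower mean in siBNC2. All genes with an unadjusted p under 0.05 numbered 708, between 589 and 1099 with 1 array left out, 312 of 13308 above percentile 40, and 1534 of 41345 probe sets, where more features were tested. The count was 824 without both arrays numbered 4 and 1207 with the replicate number as a block, and no factor crossed a threshold in either. The deviations of same-numbered arrays from their group means correlated with r = 0.39, 0.42, −0.0010 and 0.67. Between arrays of different numbers, 1 from each group, r ran between −0.53 and 0.40. Per the study's methods, compared groups were treated together in each round of replicates, but neither these nor the labels say that the number of an array marks its round, and the main fit has no block. The number of arrays, 4 per group, limits what difference could be seen.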
